A study of Mus musculus with 16 samples.

Results

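Cd163 and Alpl are the 2 genes described here, out of 55487 gene identifiers in RNA sequencing of 16 mouse mammary organoid samples. They were chosen by their measured levels, for being higher in every mutant genotype than in WT, so their levels against WT are given as a description, with no test. The series compared WT organoids from normal breast (n = 3) with organoids from breast tumors that carried a mutation of PIK3CA (n = 4), a mutation of HER2 (n = 4) or mutations of both (n = 5, the double mutant). The series title gives the alleles as H1047R of PIK3CA, a catalytic subunit of phosphoinositide 3-kinase, and V777L of HER2, the receptor tyrosine kinase named Erbb2 in the mouse. GEO's design text names mice as the source of every genotype. All groups shared 1 culture medium with epidermal growth factor (EGF) and conditioned media for Rspo1 and for Noggin. The strain, age and sex of the mice, the promoter or Cre driver behind each allele, and whether each organoid sample came from its own mouse are not given in the sources used here. Every comparison with WT is also one of tumor with normal breast, and the 2 cannot be told apart.

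Cd163 encodes a scavenger receptor of the cysteine-rich family that takes up complexes of haemoglobin with haptoglobin. It is known as a surface marker of monocytes and tissue macrophages and is induced there by glucocorticoids and interleukin-10. The human receptor is shed by the protease ADAM17. Alpl encodes tissue-nonspecific alkaline phosphatase, an enzyme held on the outer cell surface by a glycosylphosphatidylinositol (GPI) anchor. It splits inorganic pyrophosphate and pyridoxal phosphate, is required for bone mineralization, and alkaline phosphatase staining is a classic histochemical mark of mammary myoepithelium.

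Cd163 (ENSMUSG00000008845) lies on the plus strand at chr6:124304656-124330527 of GRCm38, and Alpl (ENSMUSG00000028766) on the minus strand at chr4:137741733-137796384. Their annotated exons cover 5461 and 4033 bases, and neither gene overlaps another annotated gene. The 250 bases before each RefSeq start site (GRCm38.p6) are shown because both genes were high in the same samples and the windows differ in base composition. They run 5′ to 3′ on the strand of the gene, and capitals mark matches to the motifs searched.
Cd163, chr6:124304401-124304650, plus strand: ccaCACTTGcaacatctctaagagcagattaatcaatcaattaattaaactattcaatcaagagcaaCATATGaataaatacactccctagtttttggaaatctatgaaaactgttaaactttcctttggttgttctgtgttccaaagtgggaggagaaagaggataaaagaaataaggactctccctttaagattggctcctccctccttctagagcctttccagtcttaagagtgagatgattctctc
Alpl, internal start site, chr4:137766476-137766725, minus strand: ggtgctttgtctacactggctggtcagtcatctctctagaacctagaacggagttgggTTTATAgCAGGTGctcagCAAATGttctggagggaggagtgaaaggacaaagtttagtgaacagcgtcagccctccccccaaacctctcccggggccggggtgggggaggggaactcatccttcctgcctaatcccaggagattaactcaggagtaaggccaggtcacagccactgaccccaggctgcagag
Alpl, distal start site, chr4:137796385-137796634, minus strand: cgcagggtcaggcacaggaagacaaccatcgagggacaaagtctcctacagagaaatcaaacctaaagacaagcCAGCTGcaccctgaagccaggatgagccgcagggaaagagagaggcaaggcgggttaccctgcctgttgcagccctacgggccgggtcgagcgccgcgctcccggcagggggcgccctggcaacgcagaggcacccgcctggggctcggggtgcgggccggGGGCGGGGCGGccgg
The motifs searched on both strands were GGGCGG (GC box of Sp factors), TATAAA (the core promoter box bound by TBP), CANNTG (E box), TGANTCA (AP-1), TGTGGT (Runx factors), GAGGAAGT (PU.1 and other Ets factors), ACANNNTGT (glucocorticoid receptor), TTCNNNGAA (STAT factors) and TTGCNNAAT (C/EBP factors). The Cd163 window had 36.8% G and C against a median of 52.4% over 32851 promoter windows, and held 2 matches to the E box and none to the other motifs, with the E box present in 66.2% of those windows. The distal Alpl window had 68.4% G and C and held, close to the start, 2 overlapping matches to the GC box, which 32.7% of windows hold, with 1 match to the E box. The internal Alpl window had 56.0% G and C, 2 matches to the E box, and the TBP box on the opposite strand 192 bases before the start, a motif in 12.4% of windows. The E box was the motif that all 3 windows held. These matches describe letters only.

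The 16 libraries had between 45545182 and 64168308 counts, and 3 counts corresponded to 0.0468 to 0.0659 CPM, which is counts per 1e6 counts. Levels are CPM scaled with TMM factors, and intervals cover 95%. Erbb2, the mouse gene of HER2, was at 145 to 171 CPM in WT, at 149 to 188 CPM in PIK3CA mutant, at 2696 to 4632 CPM in HER2 mutant and at 1499 to 2751 CPM in double mutant samples, so no library went against its HER2 label. Counts of 2 replicates of a genotype differed by more than counting error in every pair (smallest chi-square per degree of freedom 22.5). Nothing in the labels says that replicates came from separate mice or cultures, so p-values measure the spread between these samples, which may be technical.

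Cd163 was low in WT and higher in each mutant sample. The WT replicates 1 to 3 had 204, 381 and 288 counts, or 3.57, 7.62 and 4.80 CPM. The 4 PIK3CA mutant samples had 65.2, 51.8, 60.1 and 47.8 CPM. The 4 HER2 mutant samples had 29.5, 21.0, 20.01 and 20.7 CPM. The 5 double mutant samples had 49.6, 46.9, 48.5, 61.1 and 54.7 CPM. The samples thus fell into 3 ranges without overlap, with WT lowest, the HER2 mutant in the middle, and the PIK3CA and double mutant samples together at the top. The lowest mutant sample, HER2 mutant replicate 3, was at 20.01 CPM and the highest WT sample, replicate 2, at 7.62 CPM. The mean was 5.33 ± 2.08 CPM in WT (SD, n = 3), 56.2 ± 7.86 in PIK3CA mutant (n = 4), 22.8 ± 4.47 in HER2 mutant (n = 4) and 52.2 ± 5.79 in double mutant samples (n = 5). The fitted log2 difference from WT was 3.40 (SE 0.247) for the PIK3CA mutant, 2.10 (SE 0.232) for the HER2 mutant and 3.29 (SE 0.242) for the double mutant, or 10.5-fold, 4.28-fold and 9.79-fold. As a description, 2.61% of the 24252 genes tested had every mutant sample above every WT sample, the pattern by which both genes were picked, and 0.713% were higher than WT in all 3 mutant genotypes at an adjusted p under 0.05.

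Alpl was far more abundant than Cd163 and already well expressed in WT. The WT replicates 1 to 3 had 52.9, 67.7 and 47.2 CPM, from 3029, 3381 and 2831 counts. The PIK3CA mutant samples had 442, 349, 452 and 374 CPM. The HER2 mutant samples had 294, 251, 468 and 193 CPM. The double mutant samples had 434, 471, 366, 379 and 509 CPM. All mutant samples lay above all WT samples, but among the mutants the ranges overlapped, since HER2 mutant replicate 3 was higher than every PIK3CA mutant sample while the other HER2 mutant samples were lower. The mean was 55.9 ± 10.5 CPM in WT (SD, n = 3), 404 ± 50.3 in PIK3CA mutant (n = 4), 301 ± 118 in HER2 mutant (n = 4) and 432 ± 60.2 in double mutant samples (n = 5). The fitted log2 difference from WT was 2.85 (SE 0.264) for the PIK3CA mutant, 2.43 (SE 0.258) for the HER2 mutant and 2.95 (SE 0.260) for the double mutant, or 7.23-fold, 5.39-fold and 7.72-fold.

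**Figure D1:**
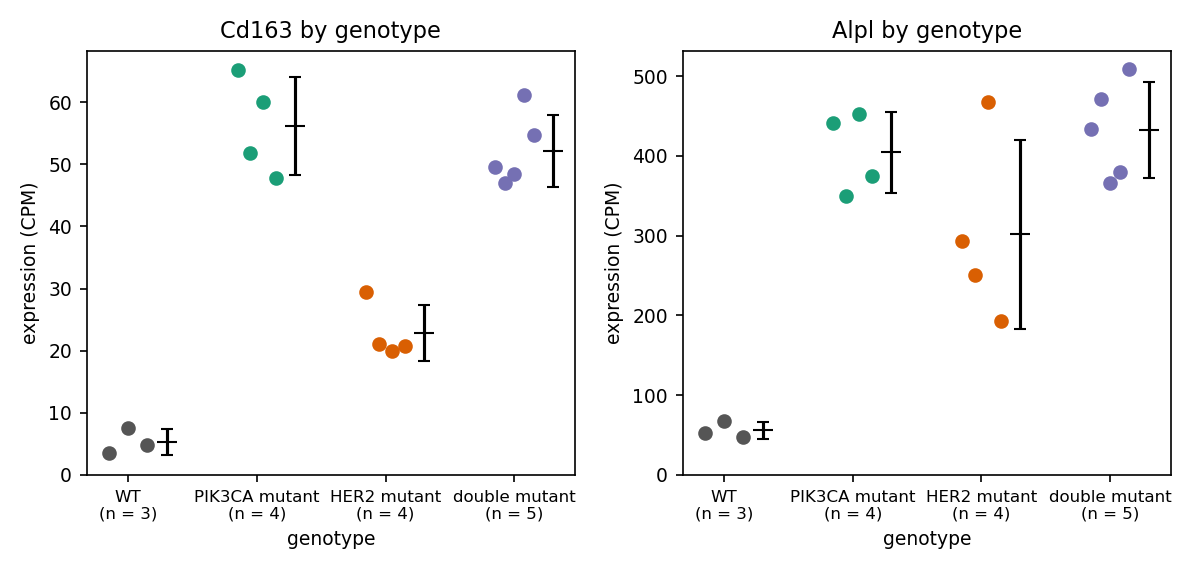
Level of Cd163 (left) and Alpl (right) in CPM on axes that start at 0, with 1 point per sample and, beside each group, the mean with bars of 1 SD. Cd163 forms 3 separate ranges, with the HER2 mutant samples at 20.01 to 29.5 CPM between WT and the other mutants, while Alpl ranges of the 3 mutant genotypes overlap.

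Per kilobase of exon, Cd163 had a mean of 0.976 CPM in WT, 10.3 in PIK3CA mutant, 4.18 in HER2 mutant and 9.55 in double mutant samples, and Alpl 13.9, 100.2, 74.7 and 107.1 CPM. On this scale the WT level of Cd163 stood above that of 38.7% of 24188 genes, and its PIK3CA mutant, HER2 mutant and double mutant levels above 82.1%, 65.5% and 80.4%. Alpl stood above 87.2% of genes in WT and above 98.3% to 98.7% in the 3 mutant genotypes. Both genes thus moved up in rank in every mutant genotype, Cd163 from below the middle of measured genes and Alpl from an already high place.

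Differences among the mutant genotypes hold no WT sample and were tested. Cd163 was 2.46-fold lower in the HER2 mutant than in the PIK3CA mutant (log2 difference -1.30, SE 0.202, interval -1.73 to -0.87, adjusted p = 0.0029 by edgeR's quasi-likelihood test). It was 2.29-fold higher in the double mutant than in the HER2 mutant (log2 difference 1.19, SE 0.194, interval 0.78 to 1.61, edgeR adjusted p = 0.0065). All 4 PIK3CA mutant samples and all 5 double mutant samples lay above all 4 HER2 mutant samples. Of the genes tested, 2.2% fell in the HER2 mutant against the PIK3CA mutant and 2.21% rose, and 1.03% rose in the double mutant against the HER2 mutant and 1.47% fell. Every PIK3CA mutant sample lay above every HER2 mutant sample for 6.87% of genes, and every double mutant sample for 2.21%. The double mutant and the PIK3CA mutant, neighbours at the top of the order, differed by -0.11 (SE 0.188, interval -0.51 to 0.29, edgeR adjusted p = 0.886), so a difference of up to 0.51 on the log2 scale is not excluded by the interval. In that comparison 0.309% of genes rose and 0.363% fell. The exact two-sided permutation test of log2 CPM, without adjustment, gave p = 0.0286 for the HER2 mutant against the PIK3CA mutant and p = 0.00794 for the double mutant against the HER2 mutant, each the smallest that these sample numbers allow.

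Alpl also had its lowest mutant mean in the HER2 mutant, but its highest in the double mutant, and no difference among the mutants passed the threshold. It was lower by 0.42 on the log2 scale in the HER2 mutant than in the PIK3CA mutant (log2 difference -0.42, SE 0.220, interval -0.89 to 0.04, edgeR adjusted p = 0.309). The double mutant exceeded the HER2 mutant by 0.52 (SE 0.210, interval 0.07 to 0.96, edgeR adjusted p = 0.203) and the PIK3CA mutant by 0.10 (SE 0.208, interval -0.35 to 0.54, edgeR adjusted p = 0.912). The exact permutation p was 0.171, 0.0556 and 0.468, without adjustment. The values turned on HER2 mutant replicate 3, whose 468 CPM was the highest of its group. Without it the difference was -0.72 against the PIK3CA mutant (edgeR adjusted p = 0.0391) and the double mutant exceeded the HER2 mutant by 0.81 (edgeR adjusted p = 0.0209). The same HER2 mutant replicate 3 had the lowest Cd163 of its group, so the 2 genes did not rank the HER2 mutant samples alike.

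**Figure D2:**
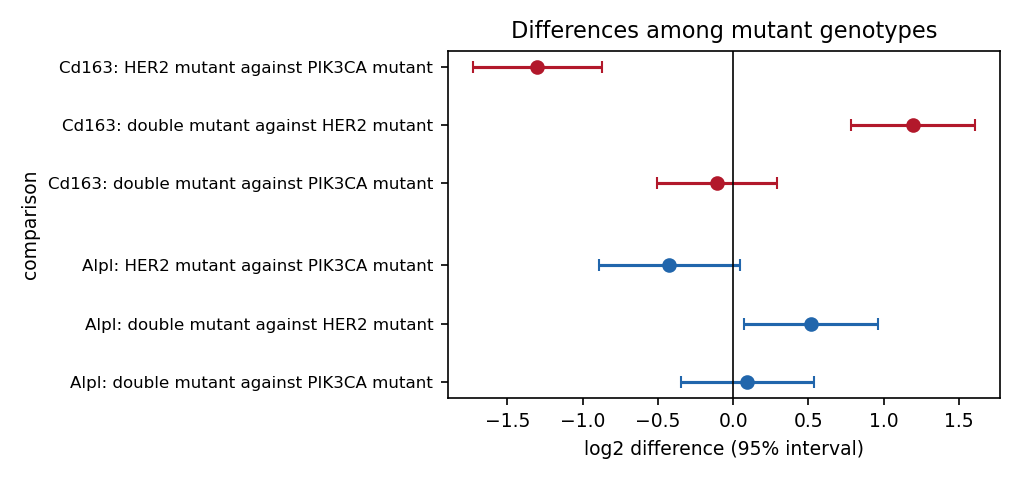
Fitted log2 difference of Cd163 (red) and Alpl (blue) between mutant genotypes, as points with 95% intervals from the edgeR fit of all 16 samples. The 2 Cd163 intervals that involve the HER2 mutant lie clear of 0, at -1.73 to -0.87 and 0.78 to 1.61, while the Alpl intervals reach close to or across 0.

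Cd163 and most other macrophage genes measured here differed in opposite directions between WT and the mutants. Lyz2, the lysozyme of macrophages and other myeloid cells, was at 1109, 405 and 2649 CPM in the WT replicates 1 to 3. It was at 1.89, 0.0413, 7.84 and 1.59 CPM in PIK3CA mutant samples, and at 0.0389 to 0.337 CPM in the 5 double mutant samples. Its reads may be shared in part with the close paralog Lyz1, and how such reads were counted is not given in the sources used here. In the HER2 mutant it was at 142 and 58.2 CPM in replicates 1 and 2 but at 0.20 and 0.123 CPM in replicates 3 and 4. WT libraries held 311, 53.1 and 551 Lyz2 counts for each Cd163 count, whereas the PIK3CA mutant libraries held 0.000797 to 0.130 and the double mutant libraries 0.000711 to 0.00679. HER2 mutant replicates 1 and 2 stood between, with 4.83 and 2.76 Lyz2 counts per Cd163 count, against 0.0100 and 0.00593 in replicates 3 and 4. Within WT, replicate 2 had the lowest Lyz2 and the highest Cd163. In bulk samples, fewer cells of a type and less RNA per cell cannot be told apart.

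**Figure D3:**
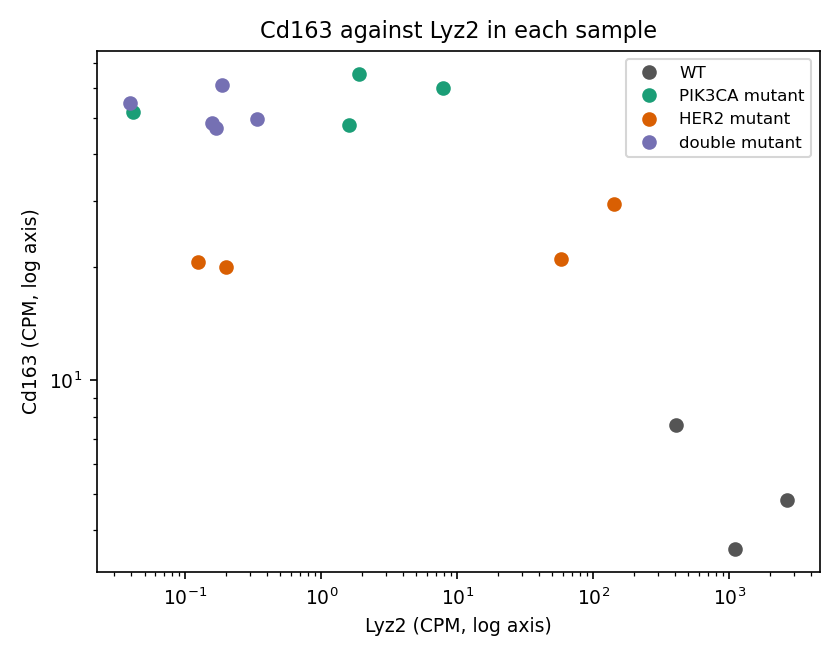
Cd163 against Lyz2 in each of the 16 samples, both in CPM on log axes, with colour for genotype. WT samples combine the highest Lyz2 (405 to 2649 CPM) with the lowest Cd163 (3.57 to 7.62 CPM), and HER2 mutant samples keep Cd163 at 20.01 to 29.5 CPM while Lyz2 spans 0.123 to 142 CPM.

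Of the macrophage genes set against Cd163, Csf1r, Adgre1, Mrc1 and C1qa were, like Lyz2, lower in every mutant sample than in any WT sample. Csf1r, the receptor of macrophage colony-stimulating factor, was at 12.5 to 79.8 CPM in WT and at 1.11 to 9.68 CPM in the 13 mutant samples. Adgre1, which encodes the macrophage surface protein F4/80, was at 8.62 to 43.7 CPM in WT, at most 0.354 CPM in PIK3CA mutant and at most 0.0554 CPM in double mutant samples, and at 5.36, 1.48, 0.0223 and 0 CPM in HER2 mutant replicates 1 to 4. The mannose receptor gene Mrc1, often named beside Cd163 as a marker of tissue macrophages, was at 18.1 to 64.6 CPM in WT and at 0.0196 to 3.83 CPM in the mutants. C1qa, a chain of complement C1q made by macrophages, was at 11.6 to 100.1 CPM in WT and at 10.1 CPM in HER2 mutant replicate 1, and at most 0.709 CPM in the other mutant samples. Cd68, a lysosomal glycoprotein, overlapped between groups, with 60.4 to 189 CPM in WT and 7.78 to 65.4 CPM in the mutants. Its mean per kilobase of exon was 15.4 CPM in PIK3CA mutant, 17.5 in HER2 mutant and 24.8 in double mutant samples. Lyz2 had another order, with 2.16, 38.2 and 0.135 CPM.

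Of the 31 macrophage and monocyte genes in the table, 21 had every mutant sample below every WT sample and 0 had every mutant sample above. Over all genes tested, these shares were 4.69% and 2.61%. Of the 27 of them that were tested, 21 fell in the PIK3CA mutant against WT, where 3.03% of all genes fell, 18 fell in the HER2 mutant (5.63% of all genes) and 24 in the double mutant (6.72%). The call was edgeR's, at an adjusted p under 0.05. None rose, where 1.49%, 4.75% and 5.03% of all genes rose, and DESeq2 and limma also called 0 higher, as did an unadjusted edgeR p under 0.05. The median log2 difference from WT was -6.60, -3.98 and -8.72, against -0.03, 0.03 and 0.01 over all genes tested. The count for the HER2 mutant was 8 without WT replicate 1 and 2 without WT replicate 3, and 22 without HER2 mutant replicates 1 and 2, and 0 were called in the fit of only the HER2 mutant and WT. Cd14, the lipopolysaccharide co-receptor, was at 492 to 600 CPM in WT and 123 to 752 CPM in the mutants, so it was plentiful in all groups. The sum of the list was 1639 to 5701 CPM in WT and 408 to 960 CPM in the mutants, and 1 to 3 list genes in WT libraries and 3 to 18 in mutant libraries had no more than 3 counts.

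**Figure D4:**
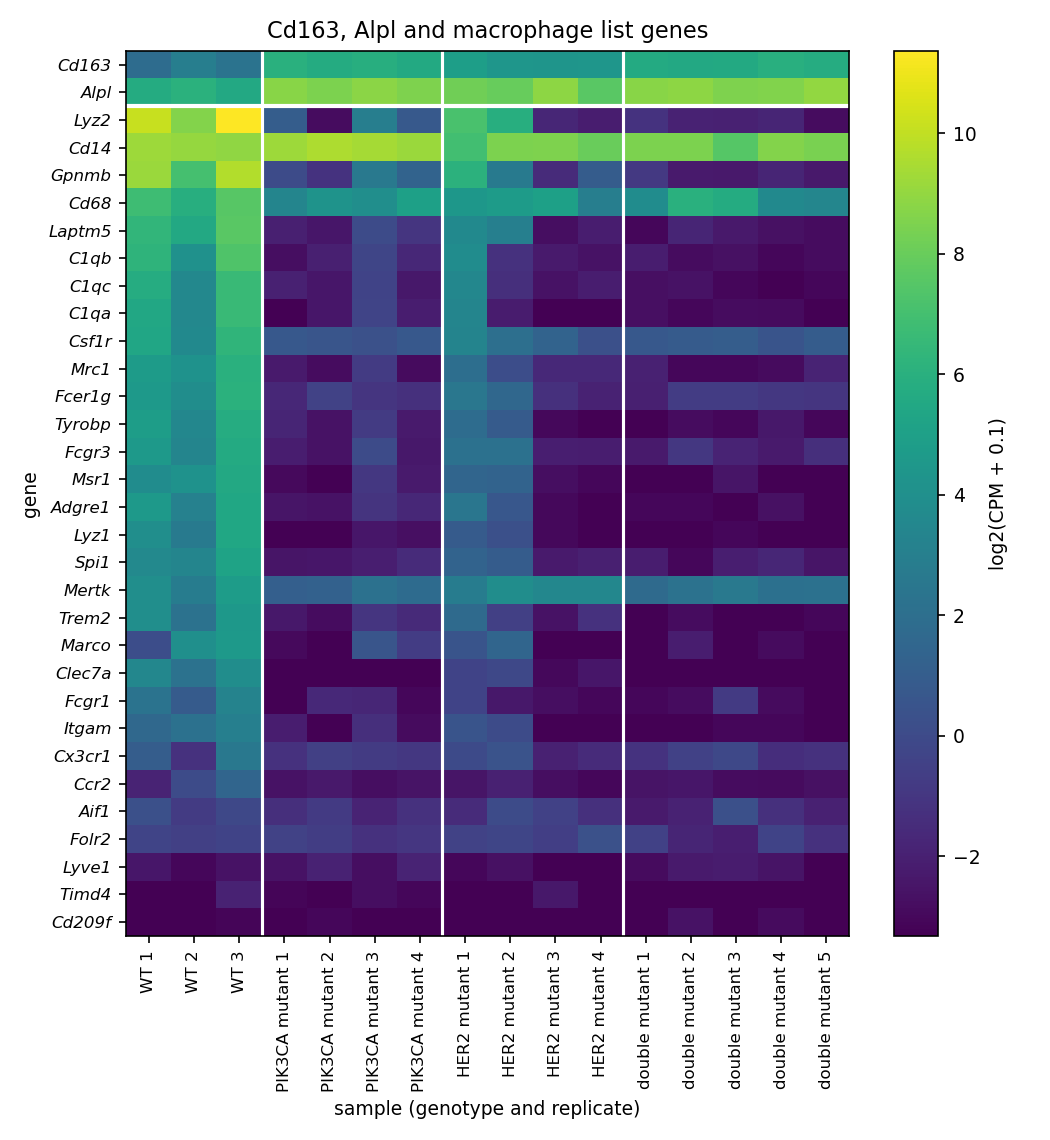
Cd163, Alpl (top, above the white line) and 30 macrophage and monocyte genes in each of the 16 samples, as log2(CPM + 0.1). The 2 top genes are darker in WT than in the mutants, while most macrophage genes are bright in WT and dark in the mutants apart from HER2 mutant replicates 1 and 2.

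HER2 mutant replicates 1 and 2 had the highest Lyz2 of the mutant libraries, so the Cd163 comparisons were repeated without them. Against the PIK3CA mutant, Cd163 in the remaining 2 HER2 mutant samples differed by -1.47 (edgeR adjusted p = 0.0070), and the double mutant exceeded them by 1.36 (edgeR adjusted p = 0.0162). Both differences were as large without these libraries as with them. For the macrophage list, 14 of 27 genes fell in the double mutant against the HER2 mutant with all samples and 0 without those 2 libraries. That count was also 4 without HER2 mutant replicate 1, 8 without replicate 2, and 2, 4, 4, 1 and 1 without double mutant replicates 1 to 5. It was 0 in the fit of only these 2 genotypes, 5 in the fit of the 13 mutants, 2 by limma and 18 by DESeq2. In the HER2 mutant against the PIK3CA mutant 2 list genes rose and 1 fell, and in the double mutant against the PIK3CA mutant edgeR called 0, with 5 lower at an unadjusted p under 0.05, 2 lower by DESeq2 and 0 by limma. The 1 lower gene was Cd14, not called without PIK3CA mutant replicate 1, 2 or 3. The count of 2 was 1 without PIK3CA mutant replicates 1 to 4 or HER2 mutant replicates 1 or 2, each left out alone, and 5 and 8 without HER2 mutant replicates 3 and 4.

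Markers of the other cell types were measured in the same libraries. The 17 luminal epithelial genes all had more than 3 counts in every library and summed to 3216 to 3581 CPM in WT and 3408 to 7307 CPM in the mutants, and Epcam, an epithelial adhesion protein, was at 479 to 699 CPM throughout. The 14 basal and myoepithelial genes summed to 1033 to 1664 CPM in WT, 920 to 1951 in PIK3CA mutant, 663 to 2024 in HER2 mutant and 1000 to 1630 CPM in double mutant samples. In the HER2 mutant, the genotype with the lowest Cd163 and Alpl means of the mutants, 5 of these 14 genes were lower than in the PIK3CA mutant and 0 higher (0 also at an unadjusted p under 0.05, by DESeq2 and by limma), with a median of -1.50 against 0.07 over all genes. Of all genes, 2.2% fell and 2.21% rose in this comparison. Without PIK3CA mutant replicate 3, 3 of the 14 were lower. Krt5, a basal keratin, was at 14.1 to 52.0 CPM in HER2 mutant and 99.6 to 412 CPM in PIK3CA mutant samples (log2 difference -3.12, SE 0.555, edgeR adjusted p = 0.0067), and Mylk, the myosin light chain kinase of contractile cells, at 2.02 to 8.56 and 20.1 to 23.1 CPM (log2 difference -2.18, SE 0.382, edgeR adjusted p = 0.0060). Against the HER2 mutant, 2 of the 14 rose in the double mutant, where 1.03% of all genes rose. The count was 4 without HER2 mutant replicate 1 and 0 without HER2 mutant replicates 1 and 2. It was also 0 in the fit of only these 2 genotypes. The part of this epithelial difference in the levels of Cd163 and Alpl was not tested. Genes of endothelium, pericytes and fibroblasts summed to 382 to 1992 CPM in WT and 32.2 to 675 CPM in the mutants, and genes of other leukocytes to 15.2 to 54.7 and 2.41 to 19.0 CPM.

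Genes that act with Cd163 were read as a list, between mutant genotypes and against WT. Of 20 genes of haemoglobin scavenging and haem breakdown, edgeR called 0 in any comparison between mutant genotypes. With 2.21% of all genes higher and 2.2% lower in the HER2 mutant against the PIK3CA mutant, 0 of 20 says little. These shares were 1.03% and 1.47% in the double mutant against the HER2 mutant. They were 0.309% and 0.363% in the double mutant against the PIK3CA mutant. At an unadjusted p under 0.05, 5 were lower and 0 higher in the HER2 mutant than in the PIK3CA mutant. At that limit 2 were higher and 0 lower in the double mutant than in the HER2 mutant. Both are the directions of Cd163. In the double mutant 1 was lower than in the PIK3CA mutant, and DESeq2 called 1 in each comparison and limma 0. Against WT, edgeR called 0 higher and 1 lower in the PIK3CA mutant. It called 2 and 5 in the HER2 mutant, and 1 and 4 in the double mutant. Of all genes, 1.49%, 4.75% and 5.03% rose and 3.03%, 5.63% and 6.72% fell. Leaving out single replicates, lower calls numbered 0, 0 to 3 and 2 to 4. Hp, the haptoglobin whose complex with haemoglobin Cd163 binds, was at 1398 to 3337 CPM in WT and at 78.4 to 983 CPM in the mutants. Hmox1, the haem oxygenase that breaks down the haem taken up, was at 95.8 to 270 CPM in WT and 34.4 to 181 CPM in the mutants, with overlap. Adam17, the mouse gene of the protease that sheds the human receptor, was at 58.0 to 63.0 CPM in WT and 51.6 to 86.9 CPM in the mutants. Tnfsf12, a cytokine that the receptor binds, was at 5.90 to 7.44 CPM in WT and 0.736 to 4.36 CPM in the mutants. So Cd163 was higher in the mutant samples, while Hp and Tnfsf12 were lower in every one of them than in any WT sample. Both of these genes were named after their values were seen.

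Of 15 tested genes with scavenger receptor cysteine-rich domains, edgeR called 1 between mutant genotypes, Loxl3, in the double mutant against the HER2 mutant, where the fits without HER2 mutant replicate 1, 2 or 3 or double mutant replicate 4 or 5 called 0. In the HER2 mutant against the PIK3CA mutant, DESeq2 called 1 higher, and 2 were higher and 1 lower at an unadjusted edgeR p under 0.05. Cd163l1, the closest named relative, had at most 0.0964 CPM in any sample. Cd5l, a macrophage-secreted relative, was at 0.240 to 62.2 CPM in WT and had 0 counts in all PIK3CA and double mutant samples. Among 13 genes of the glucocorticoid and interleukin-10 response, edgeR called 0 between mutant genotypes. At an unadjusted p under 0.05, 1 was higher and 4 lower in the HER2 mutant against the PIK3CA mutant. In the double mutant 3 were higher and 1 lower against the HER2 mutant, and 1 higher and 1 lower against the PIK3CA mutant. DESeq2 called 1 lower in the first of these comparisons and 1 higher in each of the others, and limma called 1 higher in the second. Against WT, 2, 3 and 2 of these genes rose in the PIK3CA mutant, HER2 mutant and double mutant, and 2, 3 and 2 fell. For the PIK3CA mutant 1 rose without any 1 of its 7 libraries and 1 fell without WT replicate 1 or 3 or PIK3CA mutant replicate 1, and for the HER2 mutant 1 rose without WT replicate 3 and 1 fell without WT replicate 1 or 3. The genes that rose were Per1 and Tsc22d3, both glucocorticoid-induced, in all 3 mutant genotypes, with Fkbp5 in the HER2 mutant. Those that fell were Hsd11b1 and Il10ra in all 3, with Il10rb in the HER2 mutant. Of all genes, 1.49%, 4.75% and 5.03% rose and 3.03%, 5.63% and 6.72% fell in the PIK3CA mutant, HER2 mutant and double mutant. Tsc22d3 was at 9.69 to 12.9 CPM in WT and 18.5 to 95.2 CPM in the mutants, and Nr3c1, the glucocorticoid receptor, at 112 to 127 and 76.9 to 159 CPM.

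Alpl was the alkaline phosphatase of these organoids. The other 3 genes of that family in the table, Alpi, Akp3 and Alppl2, had at most 0.132 CPM in any sample, against at least 47.2 CPM for Alpl. Among the 18 tested genes of pyrophosphate and phosphate handling, edgeR called few between mutant genotypes. In the HER2 mutant against the PIK3CA mutant 1 rose and 1 fell, in the double mutant against the HER2 mutant 1 rose, and in the double mutant against the PIK3CA mutant 1 fell, and the first, the second and the fourth of these counts were 0 without PIK3CA mutant replicate 1. The third was 0 without HER2 mutant replicate 2 or 4 or double mutant replicate 1, 2, 4 or 5. In the HER2 mutant against the PIK3CA mutant, DESeq2 called 1 higher and 4 lower and limma 1 higher and 3 lower. Against WT, the median log2 difference of the list was 0.18 in the PIK3CA mutant, 0.30 in the HER2 mutant and 0.41 in the double mutant. In the PIK3CA mutant edgeR called 0 of its genes, with 6 higher and 3 lower at an unadjusted p under 0.05. In the HER2 mutant 0 rose, or 4 at an unadjusted p under 0.05, and 3 fell (Entpd1, Ank and Spp1). In the double mutant 4 rose (Ppa1, Nt5e, Acp5 and Slc20a1, a count that was 1 without WT replicate 1 or 3) and 2 fell (Entpd1 and Ank). Of all genes, 4.75% rose and 5.63% fell in the HER2 mutant, and 5.03% and 6.72% in the double mutant. Enpp1, which makes the pyrophosphate that Alpl splits, was at 97.2 to 199 CPM in WT, 207 to 232 in PIK3CA mutant, 72.7 to 171 in HER2 mutant and 159 to 262 CPM in double mutant samples. Ank, which exports pyrophosphate, was at 207 to 454 CPM in WT and 14.4 to 154 CPM in the mutants, and in the opposite direction to Alpl every mutant sample was below every WT sample. Spp1, which encodes osteopontin, was at 6211 to 10233 CPM in WT and 646 to 8528 CPM in the mutants. Of 20 genes of GPI anchor assembly, which make the anchor that holds Alpl, edgeR, DESeq2 and limma called 0 between mutant genotypes, with 0, 1 and 2 at an unadjusted p under 0.05 in the 3 comparisons.

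Genes linked to Alpl in bone and in its regulation gave few calls among the mutants, and Bmp2 and Cyp26a1 were called in both comparisons that involve the HER2 mutant. Bmp2, a bone morphogenetic protein that induces alkaline phosphatase in bone cells, was at 14.5 to 23.1 CPM in PIK3CA mutant samples, 0.178 to 1.82 in HER2 mutant, 3.08 to 7.57 in double mutant and 2.64 to 5.17 CPM in WT samples. It was lower in the HER2 mutant than in the PIK3CA mutant (log2 difference -4.38, SE 0.585, edgeR adjusted p = 0.0011). Of 9 tested osteoblast and mineralization genes it was the one called in that comparison, and the one called in the double mutant against the HER2 mutant, where it rose by 2.51 (SE 0.531, edgeR adjusted p = 0.0233) but by 2.30 with an adjusted p of 0.0528 without double mutant replicate 1. Unlike Cd163 and Alpl, Bmp2 was lower in every HER2 mutant sample than in any WT sample. Of 15 genes with retinoic acid and BMP links, 3 fell in the HER2 mutant against the PIK3CA mutant by edgeR, Cyp26a1, Id2 and Smad6. In the double mutant against the HER2 mutant 1 of them rose, Cyp26a1, and 1 fell, Stra6, the latter opposite in direction to Cd163. Of all genes, 2.2% fell in the first of these comparisons. In the second, 1.03% rose and 1.47% fell. Cyp26a1, the enzyme that degrades retinoic acid and a target of it, was at 25.8 to 60.1 CPM in PIK3CA mutant and 0.943 to 3.49 CPM in HER2 mutant samples (log2 difference -4.27, SE 0.584, edgeR adjusted p = 0.0012), at 5.29 to 42.0 CPM in double mutant samples and at 13.4 to 23.7 CPM in WT samples, above every HER2 mutant sample. The count of 3 became 1 without any 1 of PIK3CA mutant replicates 1 to 4 or HER2 mutant replicates 3 or 4.

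**Figure D5:**
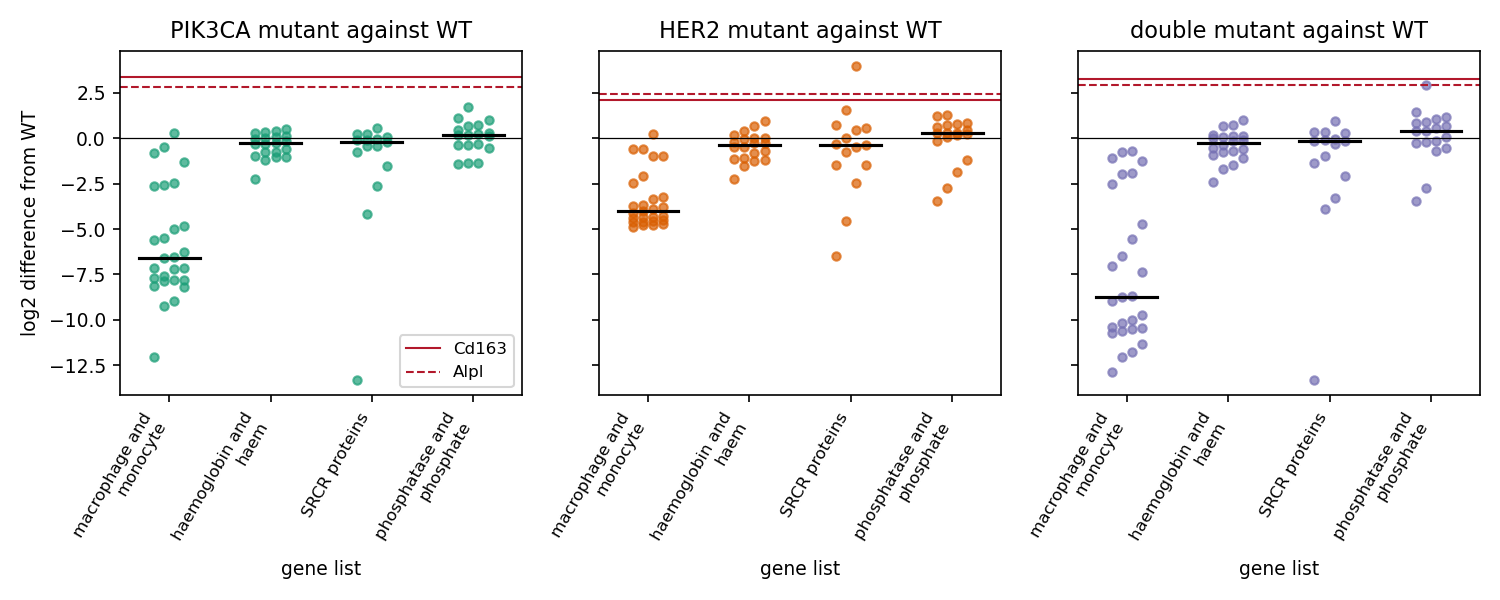
Fitted log2 difference from WT of each tested gene (points) of 4 gene lists in the PIK3CA mutant (left), HER2 mutant (middle) and double mutant (right), with the list median as a black bar and Cd163 (solid) and Alpl (dashed) as red lines. Macrophage genes lie mostly below 0 with medians of -6.60, -3.98 and -8.72, and both red lines lie above nearly all points. The points near -13 in the scavenger receptor cysteine-rich list are Cd5l. Libraries of those genotypes hold 0 counts of it, so that its fitted value depends on the prior count. Lyz2 of the macrophage list is also low in the double mutant, at -12.9 to -12.1 over alternative settings, from 2 to 19 counts per library.

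The genes whose level was most like that of Cd163 over the 16 samples were, among 11744 genes ranked by Pearson's r of log2 CPM, Alpl (0.939), Adgrg6 (0.938), Cdcp1 (0.925) and Slco2a1 (0.925). For Alpl they were Cdcp1 (0.960), Cd163 (0.939), Adgrg6 (0.933) and Ankrd22 (0.924). The points share their genotype, so these values contain the step from WT to mutant by which the 2 genes were picked. Within the 13 mutant samples, r was 0.62 between Cd163 and Alpl, 0.649, 0.667 and 0.675 for Adgrg6, Cdcp1 and Slco2a1 with Cd163, and 0.884, 0.553 and 0.487 for Cdcp1, Adgrg6 and Ankrd22 with Alpl. The values with Cd163 still contain its step between the HER2 mutant and the other mutants. Over the 9 PIK3CA and double mutant samples, r between Cd163 and Alpl was 0.191. Cdcp1, a surface glycoprotein phosphorylated by Src kinases, was at 144 to 180 CPM in WT, 298 to 312 in PIK3CA mutant, 205 to 313 in HER2 mutant and 291 to 351 CPM in double mutant samples. Adgrg6, an adhesion G protein-coupled receptor, was at 19.0 to 25.6 CPM in WT and 41.8 to 87.2 CPM in the mutants, and Slco2a1, a prostaglandin transporter, at 129 to 252 and 325 to 783 CPM.

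Relations within the mutants were tested for 6 pairs of measures. Since Cd163 formed separate ranges, its relations were computed over the 9 PIK3CA and double mutant samples. With Alpl, Pearson's r was 0.191 (permutation p = 0.617) and Spearman's rho 0.150 (permutation p = 0.707), and r was -0.01 without the 2 samples farthest from the median of Alpl. With Lyz2, r was 0.391 (permutation p = 0.30) and rho 0.283 (permutation p = 0.463), and r was -0.38 without the 2 farthest samples. With the sum of the macrophage list, r was 0.384 (permutation p = 0.294), and with the mean of the luminal list -0.18 (permutation p = 0.684). Over the 13 mutant samples, Alpl had r = 0.502 with the luminal list (permutation p = 0.0771, rho 0.203) and 0.465 with the basal list (permutation p = 0.107, rho 0.0934). Without the 2 farthest samples these were 0.0272 and -0.37, so both rested on those samples. The adjusted p over the 6 relations was 0.321 to 0.684 for r, and no relation passed.

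Annotated genes within 100 kb of each gene were read for their own counts. Beside Alpl, Usp48 had 3904 to 7765 counts, Ece1 2867 to 9656 and Rap1gap 1934 to 8897 per library, and for each the WT libraries overlapped with the mutant libraries. Beside Cd163, the peroxisomal import receptor gene Pex5 had 3117 to 5637 counts, with 3265 to 3775 in WT. The short noncoding gene Gm25311, which overlaps the printed window before the Cd163 start on the other strand, had 0 counts in the 3 WT libraries, 9 to 18 in PIK3CA mutant, 0 to 4 in HER2 mutant and 2 to 7 in double mutant libraries. The pseudogene Gm6308 upstream had 6 to 11 counts in WT, 26 to 49 in PIK3CA mutant, 9 to 27 in HER2 mutant and 12 to 43 in double mutant libraries. Vmn2r27, farther upstream on the minus strand, had 0 counts in WT, 7 to 14 in PIK3CA mutant, 0 to 4 in HER2 mutant and 0 to 13 in double mutant libraries. The low counts of Gm25311, Gm6308 and Vmn2r27 were highest in the genotype with the highest Cd163. Downstream, Gm44007 did not share this, with 6 to 8 counts in WT and 2 to 8 in PIK3CA mutant libraries. Whether any of these counts are reads of the Cd163 transcript was not tested.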

How the data were processed

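RNA from 16 mouse mammary organoid samples was made into libraries with a SMARTer kit, per the labels' protocols. The authors deposited whole-number read counts per Ensembl gene, and a normalized signal table that equals those deposited counts divided by 1 factor per library (largest relative difference 5.49e-10). The submitters' processing notes name mm10, bcl2fastq 2.20, STAR 2.0.4b, featureCounts 1.4.5 of Subread and DESeq2 1.33.5, without settings or strandedness. Of 55774 table entries, 287 repeated identifiers were dropped. Total counts ran from 45545182 to 64168308 per library.

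Counts were fitted with edgeR 4.0.16 (R 4.3.3): filterByExpr (24252 genes, both members kept), TMM scaling, all 16 samples with genotype as the factor, quasi-likelihood tests, two-sided, and Benjamini-Hochberg adjustment over all genes tested within a comparison, with calls at an adjusted p under 0.05. SE is the absolute log2 difference divided by the square root of F. Log2 CPM used a prior count of 2. The scripts were tested on simulated data. Alternatives were median-of-ratios and upper-quartile scaling, no filter, a replicate block, fits of 2 genotypes or of the 13 mutants, DESeq2 1.42.0, limma 3.58.1 on log2(normalized value + 1), an exact permutation test, each replicate left out, and, chosen after seeing the data, HER2 mutant replicates 1 and 2 left out. Planned correlations of Cd163 over 13 mutant samples were computed over 9, because HER2 mutant samples formed a separate range.

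The 2 genes and the 12 gene lists (222 genes, 219 in the table) were chosen with earlier results of these data known. Named genes are the 6 macrophage genes set against Cd163, the 4 most abundant genes of each list, up to 4 of each list called between mutant genotypes, and the 4 genes most like each member. Others (Hp, Tnfsf12, Tsc22d3, Cd163l1, Cd5l, Alpi, Akp3, Alppl2, Adam17, Erbb2 and the neighbouring genes) were named for their role or place after values were seen. A list gene is counted in its list but not reported here by itself. Positions are from GENCODE M21 (GRCm38), and promoters from RefSeq.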

Additional observations from a re-analysis of the deposited data

Results flagged for a closer look

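Within the HER2 mutant, Cd163 in replicate 1 stood apart from the other 3 samples. Its log2 CPM was 4.88 (29.5 CPM), against 4.33 to 4.4 (20.01 to 21.0 CPM) in replicates 2 to 4, and the gap to the nearest sample was 0.869 of the range of the group. The same library had the highest Lyz2 of the mutants, at 142 CPM, and its part in the Cd163 value was not tested. Chance sets a sample apart in this way in about 1 in 20 groups, and 24 groups were examined.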

How the results depend on the processing

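Cd163 kept its direction and its side of the threshold among the mutant genotypes under every alternative listed in the processing summary, with 1 exception. The log2 difference ran from -1.47 to -1.22 for the HER2 mutant against the PIK3CA mutant and from 1.13 to 1.36 for the double mutant against the HER2 mutant. The exception was the replicate block, with 1.18 for the double mutant against the HER2 mutant (edgeR adjusted p = 0.0511). Same-numbered samples of those genotypes correlated at 0.0711 to 0.273, with 2 of 4 best matched to their own number, so the numbers are not shown to pair samples. For Alpl, leaving out single replicates gave -0.72 to -0.26 and 0.35 to 0.81 in the same comparisons, and the calls gained were those without HER2 mutant replicate 3.

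Calls over all 12 gene lists depended more on the setting. They numbered 17 for the HER2 mutant against the PIK3CA mutant (10 with the replicate block, 8 in the fit of only the 2 genotypes, 35 by DESeq2, 7 to 21 leaving out single replicates). They numbered 26 for the double mutant against the HER2 mutant (3 with the block, 0 in the fit of the 2 genotypes, 12 in the fit of the 13 mutants, 4 without HER2 mutant replicates 1 and 2, 43 by DESeq2, 15 by limma, 6 to 31 leaving out single replicates). They numbered 2 for the double mutant against the PIK3CA mutant (0 with the block, 8 in the fit of the 2 genotypes, 1 in the fit of the 13 mutants, 10 by DESeq2, 0 to 2 leaving out single replicates). Against WT they numbered 37 for the PIK3CA mutant (80 in the fit of the 2 genotypes, 21 to 33 leaving out single replicates) and 50 for the HER2 mutant (8 in the fit of the 2 genotypes, 15 to 55 leaving out single replicates). With the block, lower macrophage genes numbered 0 for the double mutant against the HER2 mutant and 10 for the HER2 mutant against WT.

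Without HER2 mutant replicates 1 and 2, the double mutant against the HER2 mutant turned direction for Lyz2 (0.16), Adgre1 (0.72) and Ptprc (0.59). These values were not told from 0 (SE 1.65, 1.82 and 0.923, edgeR adjusted p = 0.983, 0.924 and 0.866). The HER2 mutant libraries left held 9 and 6 Lyz2 counts. With deviations from genotype means, the correlation of Alpl turned to -0.15 with the luminal list and -0.12 with the basal list. That of Cd163 with the luminal list ran from -0.37 to 0.26 leaving out single replicates. The cause was not tested.

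Calls over all genes were 1069, 606, 163, 1096 and 2518 in these 5 comparisons, in the order above. In the fit of only the 2 genotypes they were 534, 37, 364, 4136 and 541, and with the block 552, 118 and 19 in the first 3 and 1625 in the last. DESeq2 called 2219, 1715, 666 and 1869 in the first 4. In the fit of the 13 mutants, 353 and 47 were called in the second and the third, and without HER2 mutant replicates 1 and 2, 675 and 261 in the first and the second. Leaving out single replicates gave 427 to 1166, 256 to 975, 17 to 143, 396 to 1043 and 733 to 2693. Depth limits genes near 3 counts, such as Adgre1 and C1qa in the double mutant. Intervals and limits cover counting error and spread between these libraries only.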
